A study of Mus musculus with 9 samples.

Results

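The collagen chain genes are described here in the kidney cortex of mice given cisplatin, with and without a herbal decoction. Members were all genes whose symbol has the form Col, a number, a and a number, and 43 of the 17963 genes in the deposited table met that rule. They comprised 11 fibrillar chains, 8 chains of basement membranes and 24 chains of other types. Counts of 132 transcripts were summed to these 43 genes. Gene expression had been measured by RNA sequencing in 9 libraries, 3 from each of 3 groups, labelled day 4. All mice were labelled WT. Control mice had intraperitoneal saline and pure water by gavage. The cisplatin group had intraperitoneal cisplatin, a platinum drug that injures the kidney tubule, and the same water. The remaining group had cisplatin and, by gavage, YSJZD (Yishen Jiangzhuo decoction), and is called the YSJZD group below. The sources used here give no dose, strain, sex or age. They also do not say that each library is a different mouse, so a p-value below reflects only how far these libraries scatter.

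Collagens are secreted proteins of 3 chains wound into a triple helix. Fibrillar collagens form the load-bearing fibres of the interstitium, and fibril-associated and beaded-filament collagens decorate and link those fibres. Type IV collagen forms the sheet of every basement membrane. In the kidney its Col4a1 and Col4a2 chains are found in all basement membranes, and the Col4a3, Col4a4 and Col4a5 chains form a separate, more crosslinked network in the filtration barrier of the glomerulus and around some tubules, where it is made by podocytes and tubule cells. Loss of that network causes Alport syndrome.

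Library totals were 15029288 to 16690487 counts, and all values below are CPM (read counts scaled to library size) adjusted by TMM, a scaling factor for library composition, unless stated. In bulk tissue, fewer cells of a type and less RNA per cell cannot be told apart. The labelled tissue was checked against markers: 8 proximal tubule markers summed to 62590 to 82840 CPM in control, 3467 to 6181 CPM in cisplatin and 15630 to 32360 CPM in YSJZD. Cisplatin replicate 3 stood apart in its group, and not only for interstitial genes. Its podocyte and endothelial markers summed to 232 and 290 CPM, the lowest of its group, and its Col18a1 level was the highest, at 1083 CPM. Its 11 fibrillar chains summed to 257 CPM against 560.2 and 774 CPM in the other cisplatin libraries, and its 8 macrophage markers to 261 against 437 and 814 CPM.

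Summed collagen levels were higher in every cisplatin library than in every control library, and single chains moved in both directions. All 43 members together summed to 1784, 2230 and 2471 CPM in control, 3545, 3411 and 2814 in cisplatin and 2353, 2127 and 2078 in YSJZD. The cisplatin libraries were the highest 3, and the other groups overlapped. Of the classes, only basement membrane chains separated in this way, at 1431 to 1919 CPM in control and 2426 to 2737 in cisplatin. Fibrillar chains (178 to 325 and 257 to 774 CPM) and other chains (175 to 238 and 116 to 247 CPM) overlapped. The 6 type IV chains overlapped too (1305 to 1746 and 1339 to 1950 CPM). Col18a1 alone stood at 112.5 to 141.9 CPM in control and 723.1 to 1083 in cisplatin. Against control, edgeR's quasi-likelihood test called 63.6% of the 33 tested members, beside 54.6% of all 13954 tested genes. It called 12 of the 33 members higher in cisplatin (28.6% of all tested genes were called higher) and 9 lower (26.0% of all). The median log2 change over these members was 0.36, beside 0.04 over all tested genes. By class, 5 of 10 tested fibrillar chains rose and none fell by edgeR or DESeq2 (0 fell at an unadjusted p under 0.05), 3 of 8 basement membrane chains rose and 3 fell, and 4 of 15 other chains rose and 6 fell. A member had to reach a minimum count in 3 libraries to be tested, so one that is near 0 in a group could pass through the group where it was high. Without cisplatin replicate 3, 5 fibrillar chains were still called higher, while without control replicate 1 or without cisplatin replicate 2 the number was 3.

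The YSJZD group received cisplatin as well, and members were called in both directions against cisplatin alone. Against cisplatin alone, 45.5% of the members were called, beside 35.4% of all tested genes. There were 6 of the 33 members called higher in YSJZD (17.4% of all tested genes) and 9 lower (18.0% of all), with a median of -0.51 against -0.01 over all genes. Fibrillar chains were lower in 4 of 10 cases and higher in 1, and basement membrane chains lower in 3 of 8 and higher in 2. Without YSJZD replicate 3 the number of lower members was 5, with no basement membrane chain among them, and without YSJZD replicate 2 it held 1 such chain. Without cisplatin replicate 3, 6 fibrillar chains were called lower. Against control, 24.2% of the members were called, beside 19.3% of all, with 3 members higher in YSJZD (9.93% of all) and 5 lower (9.37% of all), and no fibrillar chain was called in either direction by edgeR or DESeq2 (1 lower and 0 higher at an unadjusted p under 0.05). The number lower was 3 with library totals as the scaling, without control replicate 2 or 3 and without YSJZD replicate 1 or 3. The 3 comparisons share libraries, so their values are given side by side and are not independent of each other.

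**Figure D1:**
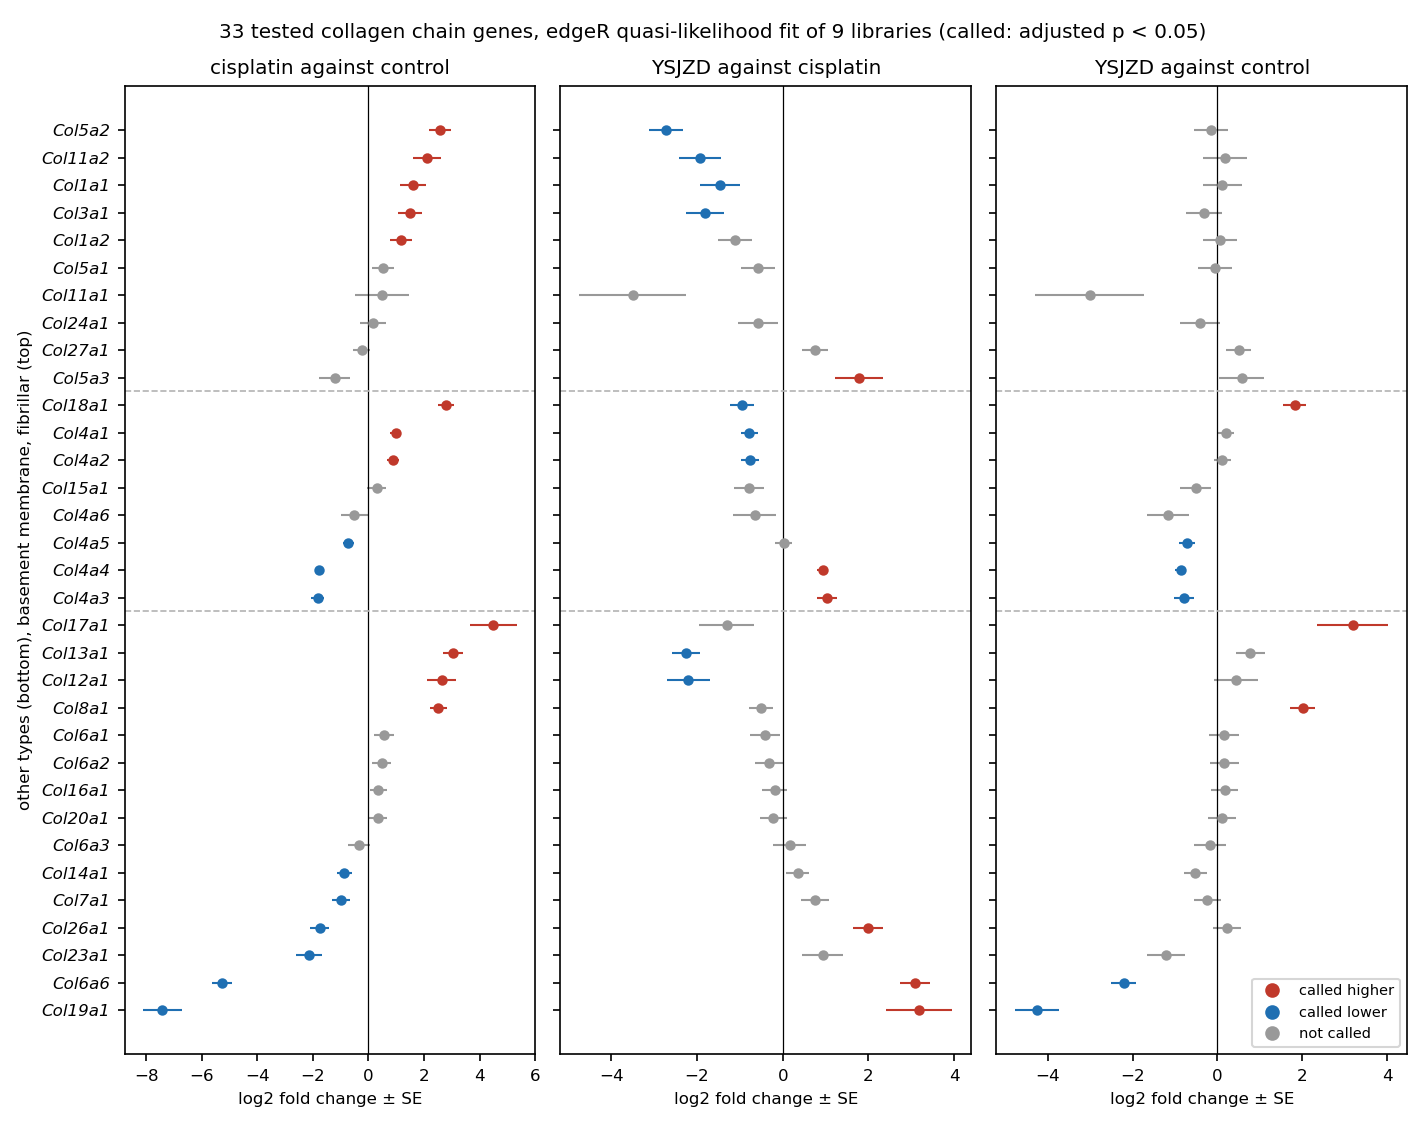
Log2 fold change with its standard error (horizontal axis) for the 33 tested collagen chain genes (rows, grouped by class) in cisplatin against control, YSJZD against cisplatin and YSJZD against control, with red for genes called higher, blue for genes called lower and grey for those not called at an adjusted p under 0.05. Fibrillar chains lie mostly to the right in the first comparison and to the left in the second, and Col4a3, Col4a4, Col6a6 and Col19a1 lie on the opposite sides.

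Type I collagen, the main fibre of scar and of most connective tissue, is made of Col1a1 and Col1a2 chains, and type III collagen of Col3a1. Col1a1 (Entrez gene 12842) stood at 17.2, 38.03 and 44.6 CPM in control, 102, 162 and 36.7 in cisplatin and 33.3, 41.3 and 34.1 in YSJZD. Cisplatin replicates 1 and 2 were the highest libraries, and cisplatin replicate 3 lay within the control range. Its log2 change was 1.59 ± 0.47 (adjusted p = 0.0161) in cisplatin against control and -1.47 ± 0.47 (adjusted p = 0.0343) in YSJZD against cisplatin, both by edgeR. Col1a2 (Entrez gene 12843) stood at 37.4, 63.5 and 74.6 CPM in control, 153, 191 and 54.99 in cisplatin and 52.6, 73.8 and 56.95 in YSJZD. The same 2 cisplatin libraries were highest and the third lay again among the controls. The Col1a2 change was 1.18 ± 0.40 (adjusted p = 0.0286) with cisplatin and -1.12 ± 0.40 (adjusted p = 0.051) in YSJZD against cisplatin, which missed the threshold. Without cisplatin replicate 3 that second value was -1.50 (adjusted p = 0.00295), and with DESeq2 it was -1.13 (adjusted p = 0.0145). In edgeR its adjusted p was 0.0467 without a filter and 0.0494 with DESeq2 size factors. Col3a1 (Entrez gene 12825) stood at 30.8, 62.95 and 77.9 CPM in control, 196, 225 and 66.5 in cisplatin and 40.3, 53.8 and 43.9 in YSJZD. All 3 YSJZD libraries were below all 3 cisplatin libraries, and cisplatin replicate 3 was below 1 control library. The Col3a1 change was 1.51 ± 0.43 (adjusted p = 0.0132) and -1.82 ± 0.44 (adjusted p = 0.00967) by edgeR.

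The type I calls depended on single libraries. For Col1a1, cisplatin against control gave 1.28 (adjusted p = 0.0607) without control replicate 1 and 1.07 (adjusted p = 0.0693) without cisplatin replicate 2. Its fall in YSJZD against cisplatin was -0.94 (adjusted p = 0.135) without cisplatin replicate 2, and adjusted p was 0.0694 to 0.098 without cisplatin replicate 1 or without any 1 of the YSJZD libraries. For Col1a2, cisplatin against control had an adjusted p of 0.0596 to 0.111 without control replicate 1, control replicate 2, cisplatin replicate 1 or cisplatin replicate 2, and of 0.052 in a fit of the 6 libraries compared.

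Sequences upstream of Col3a1 and Col1a2 are shown because both genes stood highest in the same cisplatin libraries. The sequence is from the RefSeq promoter table of GRCm38.p6, 5′ to 3′ on the gene's strand, outside annotated exons. Capitals mark matches on either strand to the TATA box TATAAA, the GC box GGGCGG or the element CAGACA, to which SMAD proteins of TGF-beta signalling can bind and which reads TGTCTG on the other strand. The Col3a1 window is chr1:45311288-45311537 on the plus strand. The printed part of the Col1a2 window is chr6:4505370-4505492 on the plus strand, and it ends 125 bases before the annotated start.
Col3a1: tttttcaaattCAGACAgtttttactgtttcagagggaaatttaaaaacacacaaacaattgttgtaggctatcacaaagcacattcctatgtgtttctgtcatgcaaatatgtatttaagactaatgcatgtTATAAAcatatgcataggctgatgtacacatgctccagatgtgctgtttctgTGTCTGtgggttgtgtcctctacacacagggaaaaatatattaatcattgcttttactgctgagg
Col1a2: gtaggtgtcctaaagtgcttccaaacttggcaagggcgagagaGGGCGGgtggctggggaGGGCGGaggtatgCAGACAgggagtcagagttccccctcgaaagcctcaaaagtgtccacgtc
The Col3a1 window holds 1 TATAAA and 2 CAGACA matches, and the printed part of the Col1a2 window 2 GGGCGG matches and 1 CAGACA match. The rest of the Col1a2 window holds 1 match to the CCAAT box, CCAAT.

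Col5a2 and Col11a2, chains of the minor fibrillar types V and XI that lie inside larger fibrils, separated the groups more clearly. Col5a2 (Entrez gene 12832), which neighbours Col3a1 in the genome, stood at 3.35, 4.74 and 6.36 CPM in control, 31.2, 42.3 and 12.9 in cisplatin and 4.14, 4.66 and 4.27 in YSJZD. Every cisplatin library exceeded every other library, and control and YSJZD overlapped. It rose 5.97-fold with cisplatin, a log2 change of 2.58 ± 0.40 (adjusted p = 0.000384) by edgeR, and in YSJZD against cisplatin the change was -2.72 ± 0.40 (adjusted p = 0.000857). Col11a2 (Entrez gene 12815) stood at 0.582, 0.947 and 0.729 CPM in control, 5.48, 2.63 and 1.68 in cisplatin and 0.701, 0.722 and 1.13 in YSJZD. It was low in all libraries and highest in the 3 cisplatin libraries, with changes of 2.11 ± 0.49 (adjusted p = 0.0044) and -1.93 ± 0.48 (adjusted p = 0.0113) by edgeR. Without cisplatin replicate 1 these were 1.51 (adjusted p = 0.0188) and -1.33 (adjusted p = 0.0473).

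Chains that assemble with these did not all move with them. Col5a1, the partner of Col5a2 in type V collagen, stood at 4.802, 10.7 and 11.5 CPM in control, 13.5, 18.5 and 6.83 in cisplatin and 7.005, 8.53 and 10.4 in YSJZD, and the groups overlapped. Its log2 change with cisplatin was 0.52 ± 0.39 (adjusted p = 0.286) by edgeR. Per transcript length (FPKM, fragments scaled to transcript length and library size), the ratio of Col5a2 to Col5a1 was 0.863, 0.549 and 0.691 in control, 2.89, 2.85 and 2.34 in cisplatin and 0.733, 0.682 and 0.519 in YSJZD. All cisplatin ratios were above all others. The FPKM ratio of Col3a1 to Col1a2 was 0.77, 0.929 and 0.977 in control, 1.2, 1.11 and 1.13 in cisplatin and 0.717, 0.684 and 0.722 in YSJZD, again with no overlap between cisplatin and the other groups. Col1a1 to Col1a2 gave 0.403, 0.526 and 0.524 in control, 0.586, 0.746 and 0.585 in cisplatin and 0.555, 0.492 and 0.526 in YSJZD. The cisplatin ratios were the highest of that set too. No test was run on these ratios.

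Col5a3, a further type V chain, went the other way. It stood at 3.06, 1.603 and 2.38 CPM in control, 0.3797, 1.54 and 1.12 in cisplatin and 2.04, 5.77 and 2.67 in YSJZD. The cisplatin libraries were the lowest 3, but cisplatin against control gave -1.21 ± 0.56 (adjusted p = 0.0892) by edgeR. YSJZD against cisplatin gave 1.78 ± 0.55 (adjusted p = 0.0299), and 1.22 (adjusted p = 0.133) without YSJZD replicate 2. Without cisplatin replicate 1 or 3 it was 1.38 (adjusted p = 0.0799) or 1.85 (adjusted p = 0.0553), and in a fit of the 6 libraries compared 1.79 (adjusted p = 0.0571). Col11a1, Col24a1 and Col27a1 were called in no comparison by edgeR. Of these Col27a1, a fibrillar chain known from cartilage, had the most counts, at 56.2 to 168 CPM over the 9 libraries, with cisplatin replicate 1 lowest and YSJZD replicate 3 highest.

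**Figure D2:**
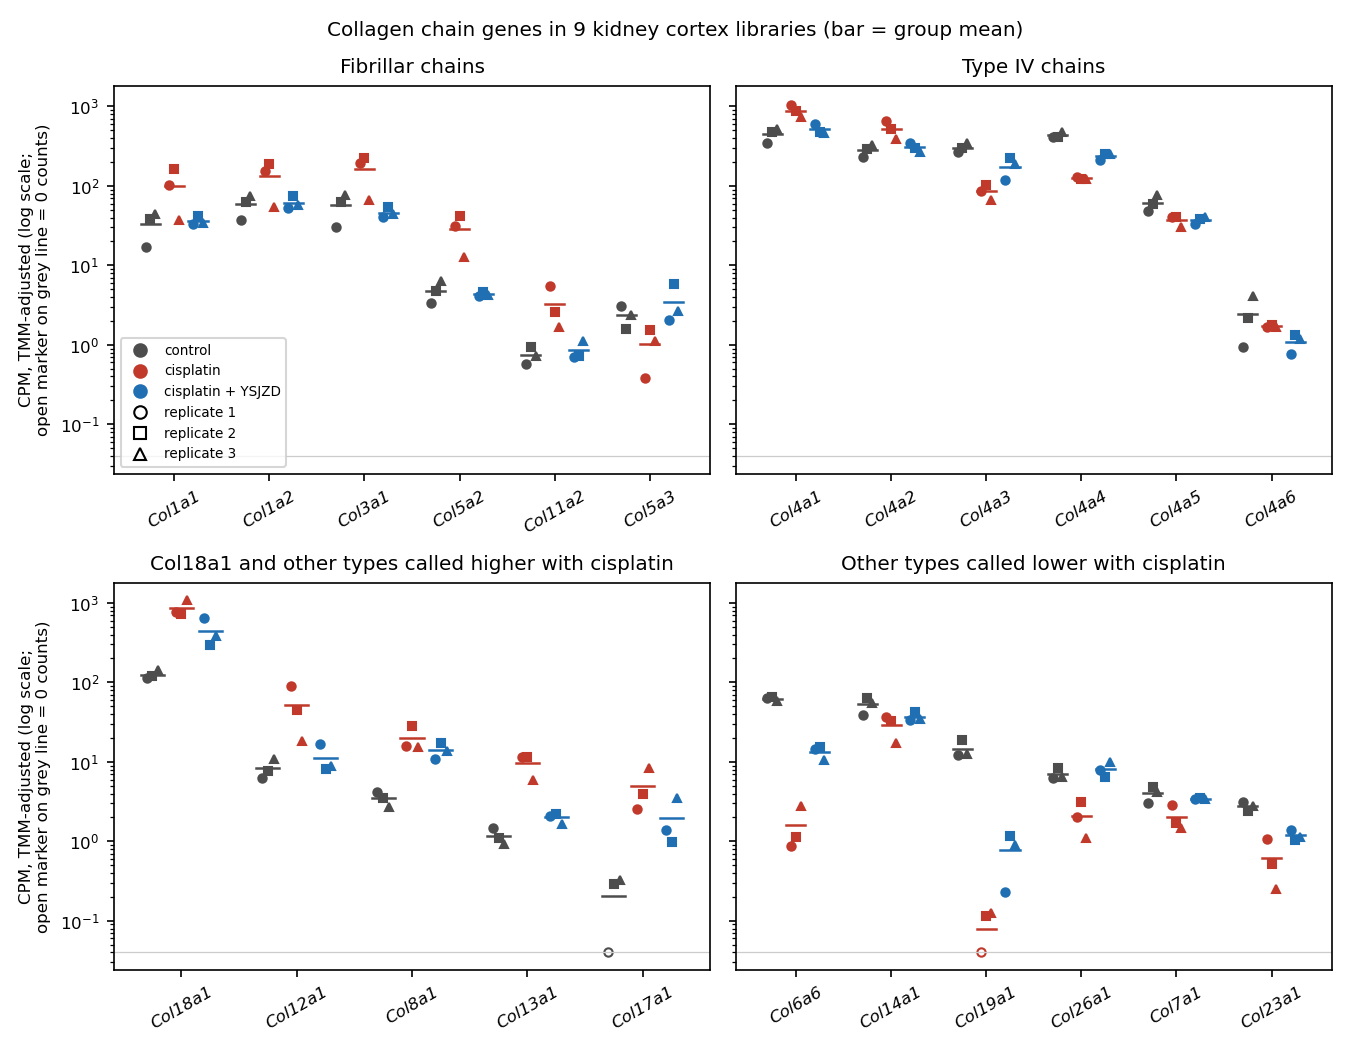
CPM (TMM-adjusted, log axis) of collagen chain genes in each of the 9 libraries, coloured by group and with a marker shape for each replicate, bars at group means and open markers for 0 counts. Cisplatin replicate 3 lies among the control libraries for Col1a1 and Col1a2 but is the highest library for Col18a1.

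Type IV collagen split into its 2 networks. Col4a1 and Col4a2 rose and Col4a3, Col4a4 and Col4a5 fell with cisplatin. Col4a1 (Entrez gene 12826) stood at 346, 474 and 521 CPM in control, 1038, 875 and 728 in cisplatin and 592, 481 and 465 in YSJZD. The cisplatin libraries were the highest 3, and control and YSJZD overlapped. Its log2 change was 0.98 ± 0.20 (adjusted p = 0.00194) with cisplatin and -0.78 ± 0.20 (adjusted p = 0.0123) in YSJZD against cisplatin by edgeR. Col4a2 (Entrez gene 12827) stood at 228, 293 and 324 CPM in control, 654, 514 and 389 in cisplatin and 346, 302 and 268 in YSJZD. The order of the groups was as for Col4a1, with no overlap between cisplatin and the rest. Its changes were 0.88 ± 0.21 (adjusted p = 0.00499) and -0.77 ± 0.21 (adjusted p = 0.0174). Both genes missed the threshold in YSJZD against control, at 0.20 ± 0.20 (adjusted p = 0.53) and 0.12 ± 0.21 (adjusted p = 0.748). The falls in YSJZD against cisplatin were -0.71 (adjusted p = 0.0524) for Col4a1 and -0.67 (adjusted p = 0.0705) for Col4a2 without YSJZD replicate 3. For Col4a2 they were -0.57 (adjusted p = 0.0637) without cisplatin replicate 1 and -0.75 (adjusted p = 0.0548) without YSJZD replicate 2.

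The Col4a3 and Col4a4 chains of the glomerular network moved together and in the opposite direction. Col4a3 (Entrez gene 12828) stood at 268, 301 and 342 CPM in control, 86.7, 102 and 67.3 in cisplatin and 118, 221 and 186 in YSJZD. The 3 groups did not overlap, with YSJZD between control and cisplatin. It fell 3.56-fold with cisplatin, a log2 change of -1.83 ± 0.24 (adjusted p = 0.000133) by edgeR, and was higher in YSJZD than in cisplatin by 1.04 ± 0.23 (adjusted p = 0.00743). Col4a4 (Entrez gene 12829) stood at 413, 409 and 478 CPM in control, 129, 124 and 123 in cisplatin and 213, 253 and 250.2 in YSJZD. The libraries of each group lay close together and the groups did not overlap. The change was -1.79 ± 0.13 (adjusted p = 4.25e-06) with cisplatin, 0.93 ± 0.13 (adjusted p = 0.000626) in YSJZD against cisplatin and -0.86 ± 0.13 (adjusted p = 0.00161) in YSJZD against control. Against control Col4a3 was lower in YSJZD too, with a log2 change of -0.79 ± 0.23 (adjusted p = 0.0388), a call that did not hold with library totals as the scaling, at -0.61 (adjusted p = 0.11). It was also lost without any 1 control library, without cisplatin replicate 1 and without YSJZD replicate 1 or 3, with log2 values of -0.57 to -0.88 and adjusted p of 0.051 to 0.115.

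Col4a5, which completes that network, is X-linked and also pairs with Col4a6 in other basement membranes. It (Entrez gene 12830) stood at 48.02, 58.9 and 76.95 CPM in control, 40.4, 40.8 and 30.4 in cisplatin and 33.1, 38.6 and 41.05 in YSJZD. Both treated groups lay below all control libraries, and they overlapped each other. The changes were -0.72 ± 0.19 (adjusted p = 0.00862) in cisplatin against control, 0.02 ± 0.19 (adjusted p = 0.959) in YSJZD against cisplatin and -0.71 ± 0.19 (adjusted p = 0.0271) in YSJZD against control. The last call was lost with library totals, at -0.53 (adjusted p = 0.121), and without control replicate 2 or 3 or any 1 YSJZD library, with adjusted p of 0.052 to 0.0934. Cisplatin against control gave -0.50 (adjusted p = 0.0857) with library totals. Col4a6 stood at 0.946, 2.19 and 4.17 CPM in control, 1.68, 1.77 and 1.68 in cisplatin and 0.759, 1.31 and 1.19 in YSJZD. It was the scarcest type IV chain, the groups overlapped, and no comparison passed the test, with -0.51 ± 0.48 (adjusted p = 0.389), -0.65 ± 0.50 (adjusted p = 0.335) and -1.17 ± 0.50 (adjusted p = 0.13) in the order above. Without control replicate 1 the last was -1.55 (adjusted p = 0.0436).

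The balance of the 2 networks was read per transcript length. The FPKM of Col4a3 plus Col4a4 over that of Col4a1 plus Col4a2 was 0.882, 0.685 and 0.732 in control, 0.0957, 0.12 and 0.125 in cisplatin and 0.26, 0.448 and 0.439 in YSJZD. Means ± SD were 0.766 ± 0.103, 0.114 ± 0.0157 and 0.382 ± 0.106 (n = 3 each), and the 3 groups did not overlap. The ratios of Col4a1 to Col4a2 and of Col4a3 to Col4a4 overlapped between groups (FPKM ratio, SD, n = 3 each). Col4a1 to Col4a2 was 1.54 ± 0.0523, 1.68 ± 0.139 and 1.64 ± 0.0753. Col4a3 to Col4a4 was 0.717 ± 0.0483, 0.707 ± 0.149 and 0.756 ± 0.168. The ratio of Col4a5 to Col4a4 was 0.192 ± 0.0289, 0.412 ± 0.06 and 0.22 ± 0.0091, and every cisplatin ratio was above all others. Each of these pairs, Col4a1 with Col4a2 and Col4a3 with Col4a4, lies side by side in the genome. As shares of all collagen counts, Col4a3 and Col4a4 made up 38.2, 31.8 and 33.2 percent in control, 6.09, 6.62 and 6.77 in cisplatin and 14.1, 22.3 and 21 in YSJZD. Every cisplatin library was under every YSJZD library, and every YSJZD library under every control library.

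**Figure D3:**
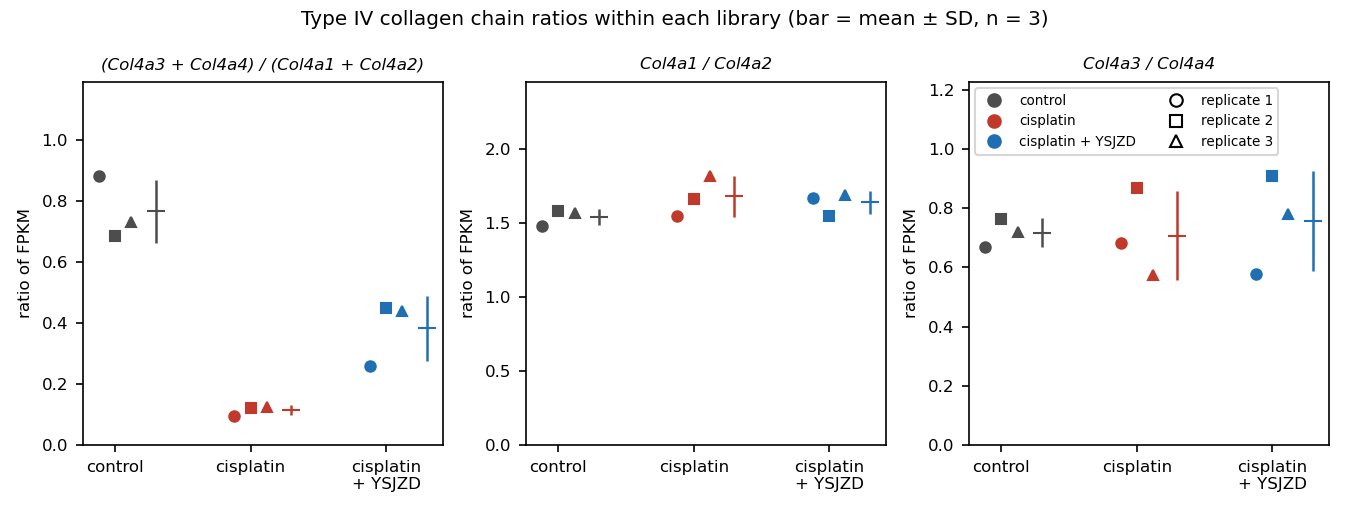
FPKM ratios of type IV collagen chains (vertical axes) in each library by group, with mean ± SD (n = 3) beside the points. The ratio of Col4a3 plus Col4a4 to Col4a1 plus Col4a2 separates the 3 groups, at 0.766, 0.114 and 0.382 on average, while the ratios within each pair overlap between groups.

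Podocytes make the Col4a3 and Col4a4 chains in the adult glomerulus. Their markers were therefore set beside these values: 10 podocyte markers summed to 242 to 319 CPM in control, 232 to 388 CPM in cisplatin and 213 to 240.1 CPM in YSJZD. In cisplatin against control 3 of these 10 were called higher and 1 lower (2 lower without cisplatin replicate 2), and Nphs1, which encodes nephrin of the slit diaphragm, was not called, at -0.27 ± 0.19 (adjusted p = 0.257) by edgeR. Of the tubule markers, 7 of 8 for the proximal tubule, 3 of 4 for the thick ascending limb, 3 of 3 for the distal convoluted tubule and 3 of 5 for the collecting duct were called lower in the same comparison. Of all tested genes, 26.0% were called lower there and 28.6% higher. The summed collecting duct markers overlapped, at 284 to 451 CPM in control and 264 to 524 CPM in cisplatin. Their part in the type IV change was not tested.

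Col18a1 had the highest mean FPKM of the members in both treated groups. It encodes a basement membrane collagen that carries heparan sulfate chains and whose end fragment is endostatin. Col18a1 (Entrez gene 12822) stood at 112, 120.1 and 142 CPM in control, 765, 723 and 1083 in cisplatin and 646, 294 and 379 in YSJZD. All treated libraries exceeded all control libraries, with cisplatin replicate 3 highest and all YSJZD libraries below the cisplatin ones. It rose 6.87-fold with cisplatin, a log2 change of 2.78 ± 0.29 (adjusted p = 3.5e-05) by edgeR, and was 1.82 ± 0.28 higher in YSJZD than in control (adjusted p = 0.00217). YSJZD against cisplatin gave -0.96 ± 0.28 (adjusted p = 0.0216), which was -0.77 (adjusted p = 0.057) without cisplatin replicate 3. Without YSJZD replicate 2 or 3 it was -0.74 (adjusted p = 0.072) or -0.86 (adjusted p = 0.0811), and in a fit of the 6 libraries compared -0.96 (adjusted p = 0.0513). Per transcript length its mean FPKM ranked 5 among the members in control (22.8 ± 4.07), and 1 in cisplatin (183 ± 30.7) and in YSJZD (91.8 ± 38.2, SD, n = 3 each). Col4a1 ranked 1 in control at 63.4 ± 16 FPKM and 2 in the treated groups at 146 ± 32.8 and 82.1 ± 10.5 FPKM, in YSJZD within the spread of Col18a1. The Col18a1 share of collagen counts was 6.31, 5.39 and 5.74 percent in control, 21.6, 21.2 and 38.5 in cisplatin and 27.5, 13.8 and 18.2 in YSJZD. No treated library overlapped the controls.

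In the deposited transcript values, 1 Col18a1 transcript, NM_009929.3, held 81.3% to 91.4% of the gene's counts in every library. Col18a1 has alternative starts, and the promoter table holds a window for each of 2. The window of the start farther upstream is shown because of the size of the change. Its printed part is chr10:77166549-77166780 (GRCm38.p6, minus strand) and ends 18 bases before that start. The sequence runs 5′ to 3′ on the gene's strand. Capitals mark GGGCGG on either strand and the CCAAT box CCAAT, here on the other strand as ATTGG.
Col18a1: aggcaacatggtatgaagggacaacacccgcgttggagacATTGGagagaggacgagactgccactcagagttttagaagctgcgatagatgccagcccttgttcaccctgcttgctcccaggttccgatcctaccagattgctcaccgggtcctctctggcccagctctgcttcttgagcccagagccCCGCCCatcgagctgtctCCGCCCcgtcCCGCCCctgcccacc
It holds 3 GGGCGG matches and 1 CCAAT match. Col15a1, the nearest relative of Col18a1, stood at 13.9 to 45.2 CPM over the 9 libraries and was called in no comparison. Its change with cisplatin was 0.29 ± 0.35 (adjusted p = 0.511) by edgeR.

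Type VI collagen forms the beaded filaments around cells, and none of its core chains was called in any comparison by edgeR. Col6a1 stood at 10.99, 18.4 and 23.4 CPM in control, 32.98, 29.5 and 15.6 in cisplatin and 15.6, 27.8 and 15.6 in YSJZD. Col6a2 stood at 7.42, 11.5 and 15.1 CPM in control, 18.9, 18.4 and 9.87 in cisplatin and 11.5, 17.5 and 9.13 in YSJZD. Col6a3 stood at 9.39, 17.9 and 19.9 CPM in control, 12.1, 18.6 and 6.64 in cisplatin and 11.2, 12.5 and 18.2 in YSJZD. The groups overlapped for all 3 genes. With cisplatin their changes were 0.56 ± 0.35 (adjusted p = 0.201), 0.47 ± 0.34 (adjusted p = 0.266) and -0.34 ± 0.38 (adjusted p = 0.477) by edgeR. In YSJZD against cisplatin they were -0.41 ± 0.35, -0.31 ± 0.34 and 0.16 ± 0.38, with adjusted p of 0.396, 0.505 and 0.764.

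Col6a6, a chain that can take the place of Col6a3 in type VI collagen, was by contrast almost lost with cisplatin. Col6a6 (Entrez gene 245026) stood at 63.8, 64.8 and 58.3 CPM in control, 0.868, 1.14 and 2.79 in cisplatin and 14.4, 15.4 and 10.6 in YSJZD. The controls lay close together, the cisplatin libraries were near 0 and the YSJZD libraries lay between, with no overlap. It fell 39.3-fold with cisplatin, a log2 change of -5.29 ± 0.36 (adjusted p = 3.13e-06) by edgeR. It was higher in YSJZD than in cisplatin by 3.09 ± 0.35 (adjusted p = 0.000215) and lower than in control at -2.21 ± 0.30 (adjusted p = 0.00097). Without cisplatin replicate 3 the first 2 values were -5.95 (adjusted p = 2.38e-06) and 3.73 (adjusted p = 7.71e-05). Its close relatives Col6a5, which lies beside it in the genome, and Col6a4, which lies beside Col6a5, had 24 and 23 counts over all 9 libraries and were not tested. The printed part of the Col6a6 window is chr9:105828247-105828335 (GRCm38.p6, minus strand), shown as a fallen gene beside the risen ones. It has 89 bases and ends 161 bases before the annotated start. It is not all of the window outside exons, since only 75 bases of the window lie in annotated exons. This short part holds none of the motifs searched, while the rest of the window holds 2 GGGCGG matches.
Col6a6: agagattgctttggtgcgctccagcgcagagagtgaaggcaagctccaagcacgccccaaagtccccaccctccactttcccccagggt

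Among fibril-associated collagens, which sit on the surface of fibres or in basement membrane zones, Col12a1 rose and Col14a1 and Col19a1 fell with cisplatin. Col12a1 (Entrez gene 12816), a large chain of dense and mechanically loaded tissue, stood at 6.33, 7.58 and 10.9 CPM in control, 90.9, 45.6 and 18.6 in cisplatin and 16.8, 8.14 and 8.84 in YSJZD. All cisplatin libraries were above all others, with replicate 1 far above the other 2. Its changes were 2.64 ± 0.52 (adjusted p = 0.00173) with cisplatin and -2.20 ± 0.51 (adjusted p = 0.00839) in YSJZD against cisplatin by edgeR, or 1.95 (adjusted p = 0.00455) and -1.51 (adjusted p = 0.0267) without cisplatin replicate 1. Col14a1 (Entrez gene 12818), its relative on mature fibrils, stood at 38.9, 64.3 and 54.97 CPM in control, 36.7, 32.5 and 17.1 in cisplatin and 33.5, 42.3 and 34.6 in YSJZD. Every cisplatin library was below every control library, narrowly, and YSJZD overlapped both. The change with cisplatin was -0.87 ± 0.27 (adjusted p = 0.0201). It was -0.71 (adjusted p = 0.0765) without control replicate 2, -0.85 (adjusted p = 0.0521) without control replicate 3 and -0.63 (adjusted p = 0.1) with library totals.

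Col19a1, a basement-membrane-zone chain studied mainly in muscle and nerve, showed the lowest log2 change of any member. Col19a1 (Entrez gene 12823) had 167, 260 and 191 counts in control, 0, 2 and 2 in cisplatin and 4, 18 and 15 in YSJZD. It was nearly absent from the cisplatin libraries, where a fold rests on 4 counts in all, and low in YSJZD, with no overlap between groups. In CPM it stood at 12.2, 18.9 and 12.7 CPM in control, 0, 0.114 and 0.124 in cisplatin and 0.234, 1.18 and 0.8898 in YSJZD. The fitted changes were -7.42 ± 0.69 (adjusted p = 1.55e-05) in cisplatin against control, 3.18 ± 0.78 (adjusted p = 0.011) in YSJZD against cisplatin and -4.25 ± 0.52 (adjusted p = 0.000599) in YSJZD against control by edgeR. Col16a1 and Col20a1, the other tested chains of this class, lay at 3.57 to 8.30 CPM and 3.49 to 9.28 CPM over the 9 libraries and were called in no comparison.

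Col8a1, a short-chain collagen that builds hexagonal networks under endothelium and around vessels, rose and stayed high in YSJZD. Col8a1 (Entrez gene 12837) stood at 4.22, 3.497 and 2.71 CPM in control, 16.1, 28.4 and 15.6 in cisplatin and 10.97, 17.5 and 13.6 in YSJZD. All treated libraries exceeded all control libraries, and the treated groups overlapped. It was 2.52 ± 0.30 (adjusted p = 8.02e-05) higher with cisplatin and 2.01 ± 0.30 (adjusted p = 0.00175) higher in YSJZD than in control, and YSJZD against cisplatin gave -0.51 ± 0.28 (adjusted p = 0.177) by edgeR. Its window, chr16:57754738-57754987 (GRCm38.p6, minus strand), is shown because it holds 4 GGGCGG matches, all on the opposite strand as CCGCCC, and 1 CAGACA match.
Col8a1: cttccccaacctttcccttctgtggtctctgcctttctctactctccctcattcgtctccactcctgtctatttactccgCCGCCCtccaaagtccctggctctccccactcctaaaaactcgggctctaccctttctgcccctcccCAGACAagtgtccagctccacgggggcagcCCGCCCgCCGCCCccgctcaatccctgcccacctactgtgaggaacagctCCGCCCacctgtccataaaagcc

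Transmembrane collagens, which are anchored in the plasma membrane of cells, moved in both directions. Col13a1 (Entrez gene 12817), found at cell-matrix contacts, stood at 1.46, 1.09 and 0.927 CPM in control, 11.4, 11.5 and 5.83 in cisplatin and 2.102, 2.23 and 1.66 in YSJZD. All cisplatin libraries were above all YSJZD libraries, and those above all control libraries. Its change was 3.04 ± 0.35 (adjusted p = 6.09e-05) with cisplatin and -2.26 ± 0.33 (adjusted p = 0.000848) in YSJZD against cisplatin by edgeR, and 0.78 ± 0.35 (adjusted p = 0.153) in YSJZD against control. Col17a1 (Entrez gene 12821), the hemidesmosome collagen of skin and other epithelia, stood at 0, 0.291 and 0.331 CPM in control, 2.55, 3.94 and 8.32 in cisplatin and 1.401, 0.984 and 3.56 in YSJZD. It was at or near 0 in control and above that in all treated libraries, with cisplatin replicate 3 highest. Its control libraries held 9 counts in all, so its changes against control rest on few control counts. The changes were 4.50 ± 0.83 (adjusted p = 0.00113) with cisplatin and 3.19 ± 0.84 (adjusted p = 0.0249) in YSJZD against control. The first was 3.90 (adjusted p = 0.00286) without cisplatin replicate 3. The second had an adjusted p of 0.053 to 0.0856 without any 1 control library or without YSJZD replicate 3. Col23a1 (Entrez gene 237759) stood at 3.13, 2.404 and 2.78 CPM in control, 1.08, 0.514 and 0.248 in cisplatin and 1.401, 1.05 and 1.13 in YSJZD. Control was highest, and cisplatin and YSJZD overlapped. Its change with cisplatin was -2.14 ± 0.47 (adjusted p = 0.00315), or -2.82 (adjusted p = 0.00101) without cisplatin replicate 1. YSJZD against control gave -1.21 ± 0.45 (adjusted p = 0.0862), and -1.22 (adjusted p = 0.0361) without cisplatin replicate 3, -1.21 (adjusted p = 0.045) without cisplatin replicate 1 and -1.19 (adjusted p = 0.0215) in a fit of the 6 libraries compared.

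The remaining tested chains were scarce. Col7a1 (Entrez gene 12836), the anchoring fibril collagen, stood at 3.06, 4.88 and 4.24 CPM in control, 2.88, 1.71 and 1.49 in cisplatin and 3.44, 3.48 and 3.38 in YSJZD. Cisplatin was below control and YSJZD, and the fall with cisplatin was -1 ± 0.33 (adjusted p = 0.0251) by edgeR. That call was lost without control replicate 2 or 3, without cisplatin replicate 2 or 3 and with library totals, with adjusted p of 0.0608 to 0.0907. YSJZD against cisplatin gave 0.76 ± 0.33 (adjusted p = 0.0964), and 1.10 (adjusted p = 0.0351) without cisplatin replicate 1. Col26a1 (Entrez gene 140709), a chain of uncertain assembly, stood at 6.33, 8.31 and 6.49 CPM in control, 2.01, 3.08 and 1.12 in cisplatin and 7.998, 6.496 and 10.1 in YSJZD. All cisplatin libraries were below all others, and control and YSJZD overlapped. Its change with cisplatin was -1.76 ± 0.35 (adjusted p = 0.00182) by edgeR, and it was 1.98 ± 0.35 (adjusted p = 0.00227) higher in YSJZD than in cisplatin.

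The 10 members that were not tested had 4 to 24 counts over all 9 libraries and at most 12 in any 1 library. They were Col2a1, Col9a2, Col9a3 and Col10a1, known from cartilage, and Col6a4, Col6a5, Col8a2, Col22a1, Col25a1 and Col28a1. Col9a1 was not analysed here. The sum of 5 chondrocyte markers was 4.37 to 6.41 CPM in control and 24.1 to 98.4 CPM in cisplatin. Nearly all of the latter was Sox9, a factor that injured tubules also express, at 0.218, 0.801 and 0.265 CPM in control, 23.9, 31.5 and 98.3 in cisplatin and 17.6, 15.3 and 9.43 in YSJZD. Hapln1, a link protein of cartilage matrix and the only other tested marker of the list, was called lower with cisplatin. It stood at 3.57, 5.54 and 4.305 CPM in control, 0 in all 3 cisplatin libraries and 0, 0.263 and 0.0593 in YSJZD.

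Across members, 34 matched an entry in the RefSeq promoter table, with 36 windows. Matches were counted on both strands in the 250 bases before each start. GGGCGG was found in 22 of the 36 windows and in 32.7% of all 32851 windows in the table, CCAAT in 12 (33.8% of all), CAGACA in 9 (17.1% of all), TATAAA in 5 (12.4% of all) and the AP-1 site TGANTCA in 1 (6.7% of all). A match is a stretch of letters and shows no binding.

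The enzymes that make collagen inside the cell were called in both directions, beside 28.6% higher and 26.0% lower of all tested genes with cisplatin. Of 20 tested enzymes and chaperones of collagen folding, 5 rose and 7 fell with cisplatin, with a median log2 change of 0.03, beside 0.04 over all genes. The number that rose was 2 or 3 without control replicate 1 or 2, cisplatin replicate 1, or YSJZD replicate 2 or 3. The 4 with the smallest p all fell: P3h2, a prolyl 3-hydroxylase, at -2.28 ± 0.23 (adjusted p = 2.45e-05); P4ha1 and P4hb, subunits of prolyl 4-hydroxylase, at -1.33 ± 0.14 (adjusted p = 3.94e-05) and -1.15 ± 0.13 (adjusted p = 5.77e-05); and Tmem38b, an ion channel of the endoplasmic reticulum, at -0.79 ± 0.12 (adjusted p = 0.000275). P3h2 stood at 78.4, 70.96 and 99.4 CPM in control, 20.02, 19.2 and 11.9 in cisplatin and 48.5, 56.2 and 69.2 in YSJZD. All 4 were higher in YSJZD than in cisplatin, by 0.42 to 1.76 on the log2 scale, and P3h2 had the largest of these values. Over the list 4 rose and 1 fell in that comparison (17.4% and 18.0% of all tested genes). The number higher was 2 without cisplatin replicate 1 or YSJZD replicate 2. The number lower was 2 without cisplatin replicate 3 and 3 without YSJZD replicate 1. Serpinh1, the collagen-specific chaperone, was not called, at 0.09 ± 0.21 (adjusted p = 0.727) by edgeR.

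Among enzymes that process and crosslink secreted collagen, those called with cisplatin were all higher. Of 13 tested, 8 rose and none fell with cisplatin (28.6% and 26.0% of all tested genes). In YSJZD against cisplatin 8 fell and none rose (18.0% and 17.4% of all). The median log2 changes were 1.25 and -1.29. The counts of 0 also held with DESeq2, and 1 and 0 genes moved in those directions at an unadjusted p under 0.05. Lox, which crosslinks collagen and elastin, stood at 1.38, 1.82 and 1.92 CPM in control, 131, 93.6 and 45.3 in cisplatin and 6.36, 6.69 and 4.69 in YSJZD. The groups did not overlap, and cisplatin replicate 3 was the lowest of its group. Its changes were 5.71 ± 0.41 (adjusted p = 3.84e-06) with cisplatin and -3.93 ± 0.36 (adjusted p = 7.89e-05) in YSJZD against cisplatin by edgeR. Bmp1, which removes the C-terminal propeptide, changed by 2.30 ± 0.26 (adjusted p = 5.13e-05) with cisplatin and -1.50 ± 0.25 (adjusted p = 0.0016) in YSJZD against cisplatin by edgeR. Loxl1, a relative of Lox, changed by 1.65 ± 0.29 (adjusted p = 0.000872) and -1.21 ± 0.29 (adjusted p = 0.00911). Adamts2, which removes the N-terminal propeptide, changed by 2.34 ± 0.45 (adjusted p = 0.00138) and -2.15 ± 0.44 (adjusted p = 0.00463). These are the genes of smallest p in cisplatin against control.

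Collagen receptors rose in 3 of 8 tested cases with cisplatin (28.6% of all tested genes), or 6 of 8 without cisplatin replicate 3. None was lower by edgeR or DESeq2 (0 at an unadjusted p under 0.05). Itgb1, the shared beta chain of collagen-binding integrins, changed by 1.03 ± 0.13 (adjusted p = 0.000109) by edgeR. Itga2, an alpha chain that pairs with it, changed by 3.62 ± 0.67 (adjusted p = 0.00115) by edgeR. Its control libraries held 12 counts in all and its cisplatin libraries 190, so that change rests on few control counts. Ddr1, a receptor tyrosine kinase activated by collagens including type IV, stood at 155, 156 and 173 CPM in control, 303, 281 and 376 in cisplatin and 355, 278 and 307 in YSJZD. Its treated libraries all exceeded control and overlapped each other, with changes of 0.99 ± 0.15 (adjusted p = 0.000389) with cisplatin and 0.96 ± 0.15 (adjusted p = 0.0024) in YSJZD against control. In YSJZD against cisplatin 2 of the 8 receptors fell (18.0% of all tested genes), or 5 without cisplatin replicate 3.

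Of 9 genes of collagen breakdown and its inhibitors, 6 rose and 2 fell with cisplatin (28.6% and 26.0% of all tested genes). In YSJZD against cisplatin 1 rose and 5 fell (17.4% and 18.0% of all), and 2 rose without cisplatin replicate 2 or YSJZD replicate 1. Mmp14, a membrane-bound collagenase, stood at 6.33, 6.703 and 9.07 CPM in control, 67.4, 95.05 and 87.9 in cisplatin and 23.6, 20.1 and 17.9 in YSJZD. All 3 groups were separate, with changes of 3.50 ± 0.20 (adjusted p = 1.98e-06) and -2.02 ± 0.19 (adjusted p = 9.01e-05) by edgeR. Timp3, a matrix-bound inhibitor abundant in kidney, moved the other way. It stood at 2979, 3728 and 3356 CPM in control, 1154, 1089 and 1235 in cisplatin and 1904, 1796 and 1763 in YSJZD, a change of -1.53 ± 0.15 (adjusted p = 2.15e-05) with cisplatin and 0.65 ± 0.15 (adjusted p = 0.00724) in YSJZD against cisplatin. Timp1, a secreted inhibitor, stood at 0.0728, 0.219 and 0.0662 CPM in control, 34.9, 46.6 and 50.5 in cisplatin and 14.7, 4.26 and 7.89 in YSJZD, with no overlap between the groups. Its control libraries held 5 counts in all, so no fold is given. Mmp8, the neutrophil collagenase, stood at 0.0728, 0 and 0 CPM in control, 3.74, 30.2 and 17.6 in cisplatin and 0.3503, 0.525 and 0.237 in YSJZD. Its control libraries held 1 count in all, and again no fold is given. In the same comparison 5 of 5 tested neutrophil markers, among them Mmp8 itself, rose.

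Other matrix genes were counted as lists. Of 18 tested laminins, nidogens and other basement membrane proteins, 7 rose and 5 fell with cisplatin, and 2 rose and 6 fell in YSJZD against cisplatin. Over all tested genes 28.6% rose and 26.0% fell with cisplatin, and 17.4% rose and 18.0% fell in YSJZD against cisplatin. Of 14 proteoglycans and glycoproteins that bind collagen fibrils, 7 rose and 3 fell with cisplatin, and 1 rose and 7 fell in YSJZD against cisplatin. Only 1 of the latter list fell with cisplatin without any 1 control library or without cisplatin replicate 3. The median log2 changes of these lists with cisplatin were 0.07 and 0.81, beside 0.04 over all genes.

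Markers of matrix-producing cells were set beside the fibrillar chains. The 12 fibroblast and pericyte markers, of which Dcn, Lum and Postn also stand in the list of fibril-binding proteins, summed to 130.1, 154 and 159 CPM in control, 381, 431 and 216 in cisplatin and 233, 210.4 and 198 in YSJZD. All treated libraries were above control, whereas the summed fibrillar chains of YSJZD overlapped control, and cisplatin replicate 3 lay within the range of the YSJZD group. With cisplatin 6 of 11 tested rose, beside 28.6% higher and 26.0% lower over all tested genes. In YSJZD against cisplatin 3 fell, beside 18.0% of all. That 3 became 6 without cisplatin replicate 3, and 1 without cisplatin replicate 2 or YSJZD replicate 2. The 8 macrophage markers summed to 132, 93.2 and 116 CPM in control, 437, 814 and 261 in cisplatin and 120.2, 84.2 and 103 in YSJZD, and 7 of 8 rose with cisplatin. The 11 endothelial markers summed to 497, 456 and 570.1 CPM in control, 554, 642 and 290.2 in cisplatin and 266, 309 and 261 in YSJZD, with 1 called higher and 4 lower in cisplatin against control, or 3 and 3 without cisplatin replicate 3 and 2 lower without control replicate 1. In YSJZD against control 5 of the 11 endothelial markers were called lower and 0 higher by edgeR, beside 9.37% and 9.93% of all tested genes. At an unadjusted p under 0.05 in that test, 11 were lower. The part of these cells in the fibrillar changes was not tested. Markers of skeletal muscle summed to at most 0.543 CPM in any library.

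**Figure D4:**
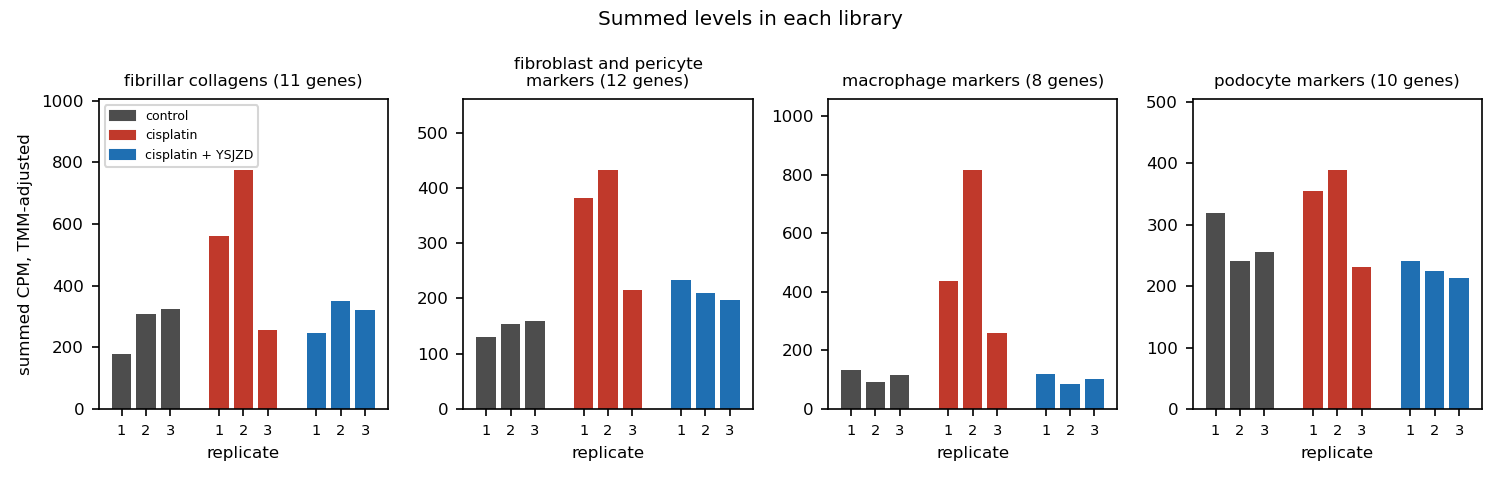
Summed CPM (TMM-adjusted) of 11 fibrillar collagen chains, 12 fibroblast and pericyte markers, 8 macrophage markers and 10 podocyte markers in each library, with bars grouped and coloured by group. Cisplatin replicate 3 is the lowest of its group in all 4 panels, at 257, 216, 261 and 232 CPM.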

How the data were processed

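The authors deposited 1 table of 58075 transcripts with counts and length-scaled values for the 9 libraries. Per the submitters' processing notes it came from RSEM 1.3.1, with DESeq2 1.4.5 and GRCh38, a human build, also named. Neither an aligner nor a mouse build is named (not given in the sources used here). The deposited read counts are expected counts, which need not be whole and which RSEM divides between similar transcripts, so close paralogs are less certain. The second deposited set of columns was taken as FPKM from its values, since the transcript lengths it implies were 1.011 to 1.014 times the annotated length minus 200 bases. Expected counts were summed by Entrez gene and rounded, and 17847 of 17963 genes matched a symbol in RefSeq's GRCm38.p6 table. Before rounding, 16.5% to 19.3% of gene counts lay over 0.005 from a whole number. No replicate pair agreed within counting noise.

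All 9 libraries were fitted in edgeR 4.0.16 under R 4.3.3 (filterByExpr by group, TMM, quasi-likelihood test, group as the only term), and 4009 genes were removed by the filter. Tests were two-sided, with Benjamini-Hochberg adjustment over the 13954 tested genes and a threshold of 0.05. Log2 changes are given ± standard error and levels or ratios ± SD. FPKM served only for ratios and ranks between genes. The members, gene lists and classes were chosen with earlier results of these data known. Values in every library are given for members called in at least 1 comparison whose mean reached 1 CPM in some group, for types I, III and IV and Col6a1 to Col6a3 whatever their result, and for some related genes. Of 4 pathway lists, up to 4 genes by smallest p in cisplatin against control are named, and Serpinh1, Sox9, Hapln1 and Nphs1 were added after their values were seen. Counts without cisplatin replicate 3 were also taken for the lists. Alternatives were other scalings and filters, DESeq2 1.42.0, separate fits for each pair of groups, a replicate block and leaving out each library.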

Additional observations from a re-analysis of the deposited data

How the results depend on the processing

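The counts of called genes and the log2 changes of 26 members with values in every library were recomputed under 16 alternatives. Of these, 9 leave out 1 library. Col19a1 in YSJZD against cisplatin had 15, since it could not be tested when only those 6 libraries were fitted. The FPKM ratios, ranks and shares of counts were not recomputed, and neither was the log2 change of Col5a1. Of 78 values (26 members in 3 comparisons), 49 kept direction and side of the threshold in all, as did 31 of the 44 that were called, and no called value changed sign. The cause of the changes below was not tested. At this depth, members under about 1 CPM rest on few counts, and with 3 libraries a group, 1 library can decide a call.

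Collagen genes called lower in YSJZD against control were 5, with 3 under library totals and 3 to 6 over the fits that leave out 1 library. Those called lower in YSJZD against cisplatin were 9, with 5 to 11 over such fits, and all genes called in YSJZD against control were 2694, with 1607 to 3138. Library totals without a composition factor moved the median log2 change of all genes from 0.04 to 0.27 in cisplatin against control. In YSJZD against control they moved it from 0.01 to 0.20. Of the genes called in cisplatin against control, 66.1% were higher with library totals and 52.4% in the main fit. In YSJZD against control these shares of the called genes were 75.4% and 51.4%.

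Some uncalled values changed sign. Col4a6 in cisplatin against control, at -0.51 in the main fit, did so without control replicate 3. With library totals, YSJZD against control gave 0.03 for Col5a2 and 0 for Col6a3, and YSJZD against cisplatin -0.03 for Col4a5. Over the fits that leave out 1 library the ranges were -0.90 to 0.12 for Col4a6 in cisplatin against control, and -0.11 to 0.10 for Col4a5 and -0.14 to 0.57 for Col6a3 in YSJZD against cisplatin. In YSJZD against control they were -0.08 to 0.37 for Col11a2, -0.19 to 0.39 for Col1a1, -0.18 to 0.28 for Col1a2, -0.01 to 0.23 for Col4a2, -0.35 to 0.11 for Col5a2, -0.17 to 0.42 for Col6a1, -0.14 to 0.42 for Col6a2 and -0.44 to 0.03 for Col6a3.

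The replicate numbers are shared across groups, but same-numbered libraries did not deviate together (correlation of deviations from group means, -0.195 to 0.092), so they are not treated as pairs. With the replicate block 7348, 4590 and 2367 genes were called in cisplatin against control, YSJZD against cisplatin and YSJZD against control, and 11, 7 and 3 collagen genes were higher and 9, 8 and 5 lower. Under the block Col1a1 in YSJZD against cisplatin was -1.39 (adjusted p = 0.0543) and Col1a2 in cisplatin against control 1.12 (adjusted p = 0.051).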
